A study of Caenorhabditis elegans with 40 samples.

Results

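The neuropeptide and insulin-like peptide genes of Caenorhabditis elegans were followed across 40 whole-body RNA sequencing libraries taken on day 1 of adulthood. The genes were the flp, nlp, ins and pdf families and daf-28, chosen by symbol and by a mean deposited value of at least 10 over the 40 libraries. Of 148 genes with such a symbol among the 20956 in the table, all but 40 met that mean, which left 30 of 31 flp genes, 60 of 75 nlp genes, 15 of 39 ins genes with daf-28, and 2 of 2 pdf genes. The libraries fell into 10 groups of 4, from 5 genotypes that were each fed bacteria with an empty vector or with RNA interference (RNAi) against repo-1 since hatching. The genotypes were the wild type strain N2 and the mutants eat-2(ad1116) in strain DA1116, raga-1(ok386) in VC222, clk-1(qm30) in MQ130 and age-1(hx546) in TJ1052, so each mutant stands for 1 allele in 1 strain. eat-2 encodes a subunit of a pharyngeal acetylcholine receptor and its loss slows feeding, raga-1 a Rag GTPase that activates the TORC1 kinase, clk-1 an enzyme of ubiquinone synthesis, and age-1 the catalytic subunit of the phosphoinositide kinase below the insulin receptor. repo-1 encodes a component of the spliceosome.

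Neuropeptides are cut from larger precursors in dense core vesicles, mostly of neurons, and act on G protein-coupled receptors of other cells. The flp genes encode FMRFamide-like peptides, the nlp genes a mixed set of other neuropeptides together with a group of glycine-rich peptides that the epidermis makes against fungi, and the pdf genes relatives of the insect pigment dispersing factor. Insulin-like peptides bind DAF-2, the worm's insulin and IGF receptor. Some of them (daf-28, ins-4, ins-6, ins-7) are known as activators of DAF-2 and others (ins-1, ins-17, ins-18, ins-37) as antagonists, and the receptor signals through AGE-1 to restrain the transcription factor DAF-16.

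Values are the counts that the authors normalized by library, and fold changes are differences of log2(value + 1), which understates the change of low genes. Errors after ± are standard errors (SE) of log2 changes unless named as SD, each group had n = 4, and a gene was called when its adjusted p, from limma with Benjamini-Hochberg adjustment over 12327 tested genes, was under 0.05. Nothing in the labels ties the 4 samples of a group to separate cultures, and p-values therefore measure only the spread between these samples, which may be technical. The libraries held 7.43 to 40.8 M reads, and the peptide genes took 0.0858 to 0.187% of each library's reads. Under RNAi, repo-1 fell to between 38% (wild type) and 52.7% (eat-2) of its empty vector mean. In whole-body RNA, fewer cells of a type and less RNA per cell cannot be told apart. All 25 listed neuron markers, all 14 hypodermis and all 20 oocyte and germ line markers passed the mean of 10, as did 10 of 11 body wall muscle and 20 of 21 sperm markers. Libraries of a group correlated at 0.952 to 0.992.

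The families differed in level. Per kilobase of exon, the gene with the highest level was nlp-77, at chromosome II:7790591-7791375 (WBcel235), with 14817 per kb and a mean deposited value of 9275. Its current symbol is srlf-1, outside the nlp symbols. It made up much of the nlp sum, so nlp sums are also plotted without it. It was followed among nlp genes by nlp-27 (3715 per kb) and nlp-40 (2619 per kb). nlp-40, at chromosome I:11495-16837, encodes a peptide released by the intestine that times defecation. The leading flp genes were flp-28 at 494 per kb (chromosome X:10087314-10087966), flp-14 at 486 (chromosome III:12910510-12914783) and flp-6 at 438 (chromosome V:9471975-9473792). flp-24 (383), flp-22 (352) and flp-1 (338, chromosome IV:9144705-9146128) came next. The insulin-like genes were lower, led by ins-17 at 187 per kb (chromosome III:4476918-4477572) and ins-27 at 184 (chromosome I:14027236-14027588). They were followed by ins-34 at 116 (chromosome IV:14106574-14107737) and daf-28 at 92.8 (chromosome V:19815133-19816454). pdf-1 stood at 138 per kb and pdf-2 at 73.

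The 40 genes under the mean of 10 were 24 ins, 15 nlp and 1 flp gene. Those just under it were ins-3 (8.58), ins-23 (8.11) and ins-29 (7.15), and ins-35 had a mean of 4.22. ins-13 and ins-38 were at 0 in every library. Among the genes kept, 38 had a mean of at least 100 and 31 a mean under 30, and the median SE of a log2 change rose from 0.12 in the first set to 0.31 in the second.

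Under repo-1 RNAi, 87 peptide genes rose in raga-1 and 54 in clk-1, while 24 rose in eat-2, 11 in wild type and 9 in age-1. In raga-1, where 1 gene fell, the 87 that rose stood beside a background of 38.2% of tested genes called higher and 33% called lower (71.1% in either direction), with a median log2 change of 0.85 that lay 0.75 above the median of all tested genes (0.10). In clk-1 3 genes fell beside the 54 that rose (background 23.8% and 22.5%, 46.3% in either direction), with a median of 0.44 against 0.00 for all tested genes. Libraries of the RNAi and empty vector groups did not overlap for 78 genes in raga-1 (background 57.5%) and for 57 in clk-1 (background 42.6%). They did not overlap for 32 genes in eat-2 (40.3%), 12 in wild type (32.4%) and 15 in age-1 (17.4%), where the share was below the background.

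In eat-2 4 genes fell beside the 24 that rose, with backgrounds of 16.2% and 21.4% (37.5% in either direction), and a median of 0.17. In age-1, 9 rose and 3 fell (background 10.6% and 10.2%), with a median of 0.17, and the share called was below the 20.9% of all tested genes, as it was in wild type. There 11 rose and 2 fell (background 10.1% and 12.9%, 23% in either direction), with a median of 0.11. These last 2 counts leaned on single libraries. The wild type count of 13 dropped to 4 without empty vector replicate 4 and to 7 without empty vector replicate 1 or RNAi replicate 2. The age-1 count of 12 dropped to 7 without empty vector replicate 2, empty vector replicate 4 or RNAi replicate 1, and to 8 without empty vector replicate 3 or RNAi replicate 2.

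**Figure D1:**
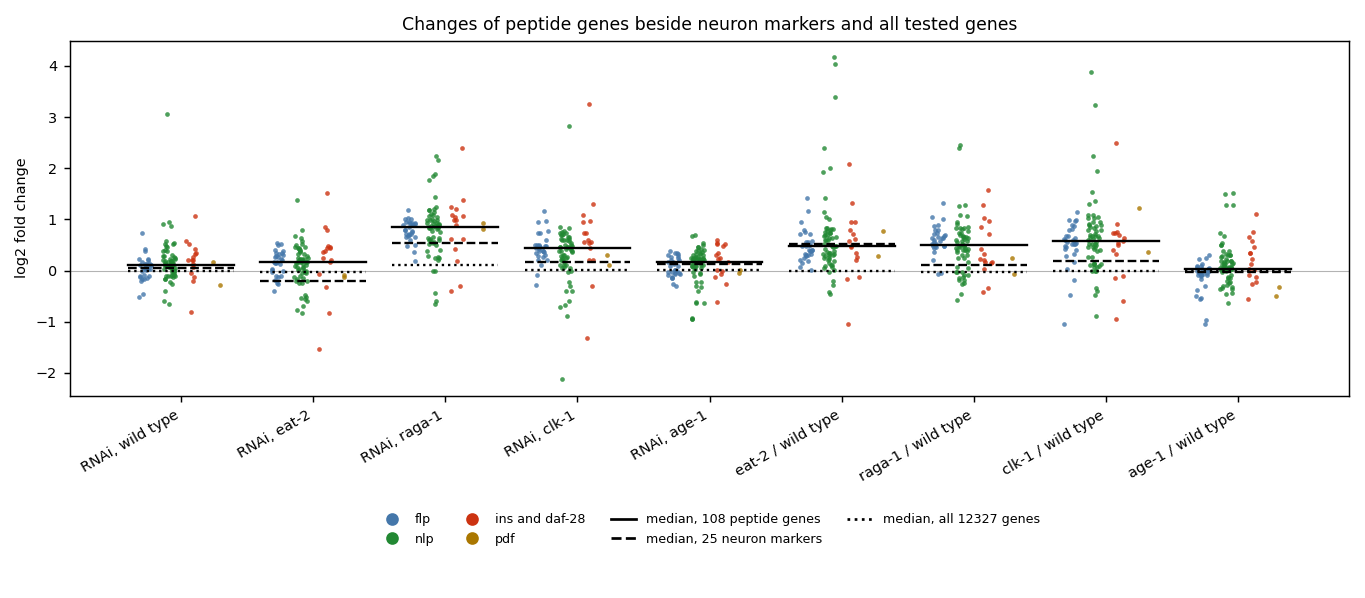
Log2 change of each peptide gene kept, by family, in the 5 RNAi comparisons and the 4 comparisons of a mutant with wild type on empty vector; each point is 1 gene, and lines mark the medians of these genes (solid), of 25 neuron markers (dashed) and of all 12327 tested genes (dotted). The solid line stands at 0.85 for RNAi in raga-1 and 0.44 in clk-1, and at 0.11 to 0.17 in the other genotypes.

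Neuron markers moved with some of these changes. Their summed value was 18743 to 20641 in raga-1 on empty vector and 24146 to 26425 under RNAi, with 18 of 25 called higher and 4 lower (median 0.54). In clk-1 it was 21091 to 21941 and 22535 to 24470, with 9 higher and 4 lower (median 0.16). Of all tested genes, 71.1% were called in raga-1 and 46.3% in clk-1, so the clk-1 marker share was near the background. When each library was rescaled to the median of these markers, 41 peptide genes were called higher and 6 lower under RNAi in raga-1, and 37 higher and 3 lower in clk-1, while in age-1 none was higher and 19 were lower, and in wild type 2 were higher and 7 lower. With this scaling the raga-1 calls of flp-1, flp-6, nlp-40, ins-1, ins-6, ins-18, pdf-2, egl-21 and sbt-1 ended, as did the wild type and age-1 calls of nlp-47 and nlp-77, the wild type call of flp-28, and the eat-2 calls of nlp-39, nlp-47, daf-28 and daf-2. The rescaling lowered log2 changes under RNAi by 0.48 in raga-1, 0.36 in age-1, 0.23 in wild type, 0.13 in eat-2 and 0.03 in clk-1. These shifts did not follow the summed markers. Their means went from 18001 to 18463 in wild type, from 18327 to 19313 in age-1 and from 22944 to 21557 in eat-2. The part of neuron content in the changes was not tested.

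Markers of other tissues also moved. In raga-1, 19 of 20 oocyte and germ line markers fell under RNAi (summed 290546 to 328202 on empty vector and 177188 to 186272 under RNAi), while 10 of 14 hypodermis markers rose (24247 to 32746, then 45660 to 47966), as did 10 of 10 tested muscle markers (153675 to 178749, then 278627 to 294232). In clk-1 9 of the 20 germ line markers fell and 4 rose (252496 to 280948, then 210132 to 230521), 8 of 10 muscle markers rose and 1 fell (84908 to 95966, then 127321 to 145468), and 4 hypodermis markers rose and 4 fell (22414 to 24456, then 31234 to 36158). The backgrounds were 38.2% higher and 33% lower in raga-1, and 23.8% and 22.5% in clk-1. The clk-1 hypodermis counts were near theirs. Sperm markers, none of which was called lower, rose under RNAi in every genotype, from 14 of 20 in eat-2 to 20 of 20 in raga-1 (509 to 1471, then 8354 to 10018) and clk-1 (152 to 250, then 1605 to 9993). Their part in the peptide genes' changes was not tested. Peptide genes were on chromosome X in 25% of cases against 14.7% of tested genes, and in raga-1 under RNAi the median change of all tested X genes was 0.42 against 0.03 on autosomes, while the peptide genes had medians of 0.88 on X and 0.85 on autosomes.

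**Figure D2:**
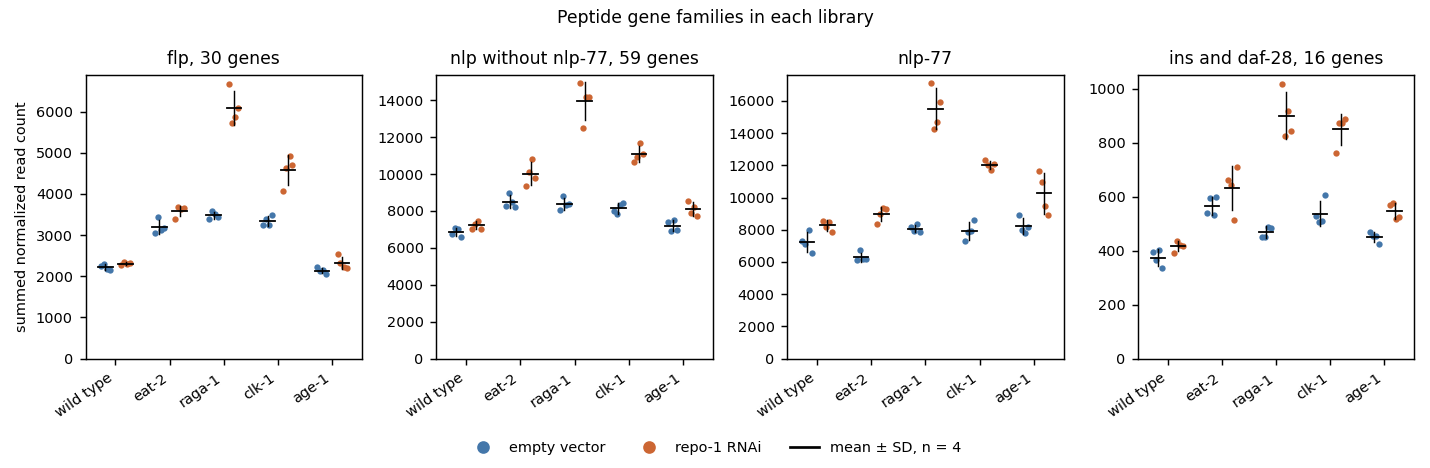
Summed deposited values of the flp genes, the nlp genes other than nlp-77, nlp-77 alone, and the ins genes with daf-28, in each of the 40 libraries, with the mean and SD of each of the 10 groups. The flp sum was 2216 in wild type on empty vector and 6094 in raga-1 under RNAi.

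The flp genes gave the plainest family pattern under RNAi. Their summed value was 2216 ± 69.1 (SD, n = 4) in wild type on empty vector and 2308 ± 31.1 under RNAi. In raga-1 it went from 3486 ± 83.8 to 6094 ± 412, and in clk-1 from 3340 ± 118 to 4576 ± 363. In eat-2 it was 3193 ± 175 and 3590 ± 128, and in age-1 2138 ± 67.3 and 2321 ± 152. Of the 30 genes, 28 rose and none fell under RNAi in raga-1 (median 0.80, background 38.2% higher). In clk-1 19 rose and none fell (median 0.45, background 23.8% higher). In eat-2 5 rose, in wild type 3 and in age-1 2, with none called lower. These shares were near or below the 16.2%, 10.1% and 10.6% of all tested genes called higher. The median of 0.04 in wild type and 0.05 in age-1 turned to -0.19 and -0.31 when scaled to neurons.

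flp-28 rose in all 5 genotypes. Its values in replicates 1 to 4 were 163, 183, 145 and 139 in wild type on empty vector and 200, 207, 224 and 188 under RNAi. In raga-1 they were 184, 256, 259 and 262 on empty vector and 626, 452, 550 and 545 under RNAi. In clk-1 they were 233, 233, 210 and 225, then 374, 484, 488 and 424. The groups did not overlap in these 3 genotypes, and the log2 changes were 0.38 ± 0.10 in wild type, 1.18 in raga-1 and 0.96 in clk-1, with 0.54 in eat-2. The limma adjusted p was 0.00611 for wild type, 3.52e-12 for raga-1, 1.87e-09 for clk-1 and 0.000102 for eat-2. The rise of 0.28 in age-1 was at the threshold (limma adjusted p = 0.0491). It was 0.052 with the replicate number as a block and 0.065 by edgeR, and the call ended without any 1 of the 8 age-1 libraries, with an adjusted p of up to 0.15.

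flp-1, made by the AVK interneurons and needed for normal movement, was called higher under RNAi in raga-1 and clk-1 and in no other genotype. Its values in replicates 1 to 4 were 197, 266, 215 and 251 in raga-1 on empty vector and 394, 365, 360 and 382 under RNAi. In clk-1 they were 250, 247, 232 and 255, then 314, 337, 348 and 399. Groups stood apart in each mutant, with log2 changes of 0.70 ± 0.08 (limma adjusted p = 2.96e-09) and 0.50 (adjusted p = 4.83e-06). In wild type the change was 0.04 (adjusted p = 0.755), and the difference from wild type was itself called, at 0.66 in raga-1 (limma adjusted p = 1.41e-05) and 0.46 in clk-1 (adjusted p = 0.00308).

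flp-11, the peptide gene of the sleep-promoting neuron RIS, had means of 167 and 311 in raga-1 without and with RNAi (0.91 ± 0.12, limma adjusted p = 3.24e-08) and of 171 and 240 in clk-1 (0.49, adjusted p = 0.000983). flp-14 had means of 255 and 474 in raga-1 (0.90, limma adjusted p = 1.06e-08) and of 185 and 320 in clk-1 (0.78, adjusted p = 4.83e-07). flp-11 and flp-14 were each called higher in 3 genotypes, raga-1 and clk-1 among them. flp-20, a gene of the touch receptor neurons, rose by 0.90 in raga-1 and by 1.16 ± 0.24 in clk-1 (limma adjusted p = 0.000176). flp-6, a peptide of the thermosensory AFD neurons, rose by only 0.37 in raga-1 (limma adjusted p = 0.00874), a change that turned to -0.11 when scaled to neurons, and its change of -0.28 in clk-1 was not called (adjusted p = 0.0658, and 0.026 by edgeR). flp-11, flp-16, flp-19 and flp-33 share exon bases with a gene on the other strand, and the counting strand is not given in the sources used here.

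The mutations alone changed flp genes too. Against wild type on empty vector, 19 flp genes were higher in eat-2 (median 0.40), 23 in raga-1 (median 0.62) and 22 in clk-1 (median 0.55), with 2 lower in clk-1 and none in the other two. All peptide genes together gave 63 higher and 5 lower in eat-2 (background 27.2% and 29.8%, 57% in either direction), 60 and 0 in raga-1 (19.7% and 26.4%, 46.1%), 69 and 7 in clk-1 (27.8% and 30.4%, 58.3%), and 5 and 5 in age-1 (4.76% and 3.72%, 8.48%). In eat-2 and age-1 the share called in either direction was thus near the background. The libraries did not overlap those of wild type for 68 peptide genes in clk-1 (background 57.7%), 45 in raga-1 (39.3%), 54 in eat-2 (58.3%) and 14 in age-1 (14.9%). The share without overlap in eat-2 was thus below that of all tested genes, and in raga-1 and age-1 near it. These comparisons share the wild type controls. The neuron markers were also higher in eat-2, with 20 of 25 called and a summed value of 22291 to 23572 against 17717 to 18374 in wild type. Scaled to neurons, the flp median in eat-2 turned to -0.22 and the median of all peptide genes from 0.48 to -0.14, and after quantile normalization the latter was -0.00. In raga-1 and clk-1 the flp median stayed above 0 under each scaling (0.21 and 0.18 with neurons, 0.47 and 0.27 with quantiles). In raga-1 and clk-1 the neuron markers had 7 and 8 called higher. Of differences from wild type given for single genes, those of ins-17 (eat-2 and clk-1), ins-1, ins-34 and pdf-2 (eat-2), ins-7 (raga-1), and flp-3 and flp-5 (age-1) were not called when scaled to neurons.

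flp-8 went in opposite directions in the mutants. Its values in replicates 1 to 4 were 75.7, 77.6, 90.1 and 73.6 in wild type on empty vector. They were 160, 154, 169 and 180 in raga-1. They were 37.3, 37.5, 30.9 and 46.1 in clk-1, and 40.3, 35, 46.9 and 39.5 in age-1. All raga-1 libraries lay above wild type (1.06, limma adjusted p = 6.7e-08), and all clk-1 and age-1 libraries below it (-1.05, adjusted p = 2.8e-08, and -0.96, adjusted p = 3.22e-06). Under RNAi flp-8 was called higher in 3 genotypes, among them raga-1 and clk-1. In clk-1 it reached 62.5, 72.9, 78.2 and 83.5, while in age-1 it stayed at 34.9 to 40.9.

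In age-1 the flp genes were lower where they were called at all. flp-8, flp-27 (-1.04 ± 0.23, limma adjusted p = 0.00217), flp-3 (-0.54 ± 0.11, adjusted p = 0.00113) and flp-5 (-0.56, adjusted p = 0.0291) fell, and none rose. The flp-5 call ended without wild type replicate 2, 3 or 4 or age-1 replicate 2 or 4 (adjusted p up to 0.126). flp-32 was higher in the other mutants. Its mean was 17 for wild type, 46.1 for eat-2, 43.8 for raga-1 and 34.5 for clk-1, with log2 changes of 1.41, 1.33 ± 0.26 and 1.00 (limma adjusted p = 2.19e-05, 8.61e-05 and 0.0014).

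**Figure D3:**
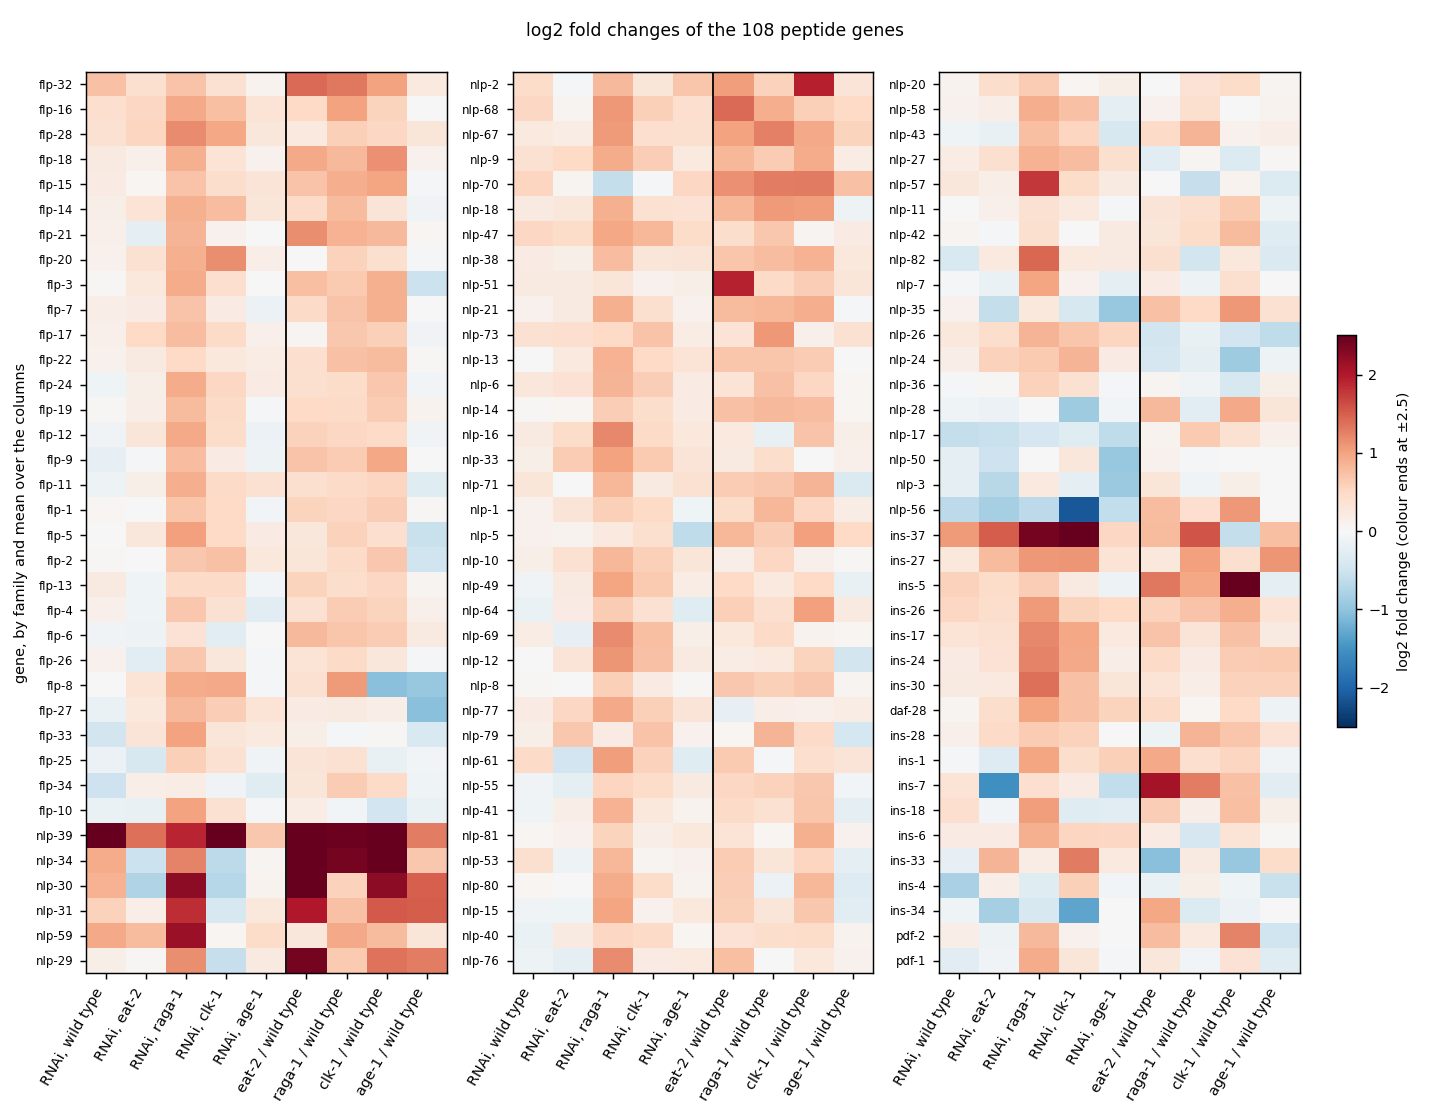
Log2 change of the peptide genes (vertical, by family) in 9 comparisons (horizontal), the 5 RNAi effects and the 4 mutants against wild type on empty vector. The columns for RNAi in raga-1 and in clk-1 carry 87 and 54 genes called higher, and the column for age-1 against wild type 5 higher and 5 lower.

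Of the 60 nlp genes, 47 rose and 1 fell under RNAi in raga-1 (median 0.85), 27 and 2 in clk-1 (0.39) and 16 and 2 in eat-2 (0.15). In wild type 8 rose and 1 fell and in age-1 6 and 3, and scaling to neurons turned these medians from 0.13 to -0.10 and from 0.20 to -0.15. Of all tested genes, 38.2% were called higher in raga-1, 23.8% in clk-1, 16.2% in eat-2, 10.1% in wild type and 10.6% in age-1. In either direction the nlp share was near the background in clk-1 (46.3%) and below it in eat-2 (37.5%), wild type (23%) and age-1 (20.9%). The nlp sum went from 16444 ± 270 (SD, n = 4) to 29459 ± 2201 in raga-1, from 16071 ± 785 to 23121 ± 198 in clk-1 and from 14100 ± 766 to 15489 ± 445 in wild type. Most of each rise came from nlp-77, whose mean went from 8071 to 15503, from 7921 to 12022 and from 7227 to 8270 in that order.

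Outside the antimicrobial-type genes, nlp-77 rose in all 5 genotypes under RNAi. Its values in replicates 1 to 4 were 6108, 6725, 6159 and 6174 in eat-2 on empty vector and 8367, 8955, 9330 and 9268 under RNAi. In raga-1 they were 8144, 7895, 8358 and 7889, then 17086, 14285, 14694 and 15947. In clk-1 they were 7308, 7834, 7916 and 8627, then 12309, 12013, 11702 and 12063. The groups stood apart in these 3 mutants, with log2 changes of 0.51 ± 0.07 (eat-2), 0.94 (raga-1) and 0.60 (clk-1) and limma adjusted p-values of 1.27e-07, 9.47e-15 and 2.04e-09 in that order. In wild type (0.20, limma adjusted p = 0.0253) and age-1 (0.31, adjusted p = 0.00071) the groups overlapped. The wild type call ended without empty vector replicate 2 or 4 or RNAi replicate 1 or 3 (adjusted p up to 0.134), and scaling to neurons turned the 2 changes to -0.03 and -0.04.

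nlp-47 was the other nlp gene called higher in every genotype, by 0.51 ± 0.15 (wild type), 0.46 (eat-2), 0.96 (raga-1), 0.83 (clk-1) and 0.46 (age-1). The limma adjusted p-values were 0.00886, 0.011, 4.4e-07, 1.28e-05 and 0.0208 in that order. The age-1 call ended without empty vector replicate 1, 2 or 3 or RNAi replicate 1 (adjusted p up to 0.12), and the wild type call without empty vector replicate 4 (adjusted p = 0.0532). Together with flp-28 and nlp-77, this made 3 genes called higher in all 5 genotypes, beside 2.15% of tested genes. In at least 4 genotypes 12 were called higher (background 6.07%), the others being daf-28, flp-16, nlp-6, nlp-9, nlp-13, nlp-26, nlp-27, nlp-39 and nlp-73.

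nlp-56 was the single gene called lower in all 5 genotypes (background 2.78%). Its values in replicates 1 to 4 were 127, 150, 157 and 123 in clk-1 on empty vector and 37.3, 38.3, 20.9 and 30.7 under RNAi. In wild type they were 74.0, 70.8, 60.4 and 54.9, then 40.6, 42.5, 32.9 and 47.9. The groups stood apart in each, with log2 changes of -2.13 in clk-1 (limma adjusted p = 1.4e-10) and -0.66 in wild type (adjusted p = 0.017). The other changes were -0.84 (eat-2), -0.66 (raga-1) and -0.62 (age-1, limma adjusted p = 0.0274). The fall was larger in clk-1 than in wild type by 1.47 ± 0.29 (interaction -1.47, limma adjusted p = 0.000201). The wild type call ended without empty vector replicate 1 or RNAi replicate 3 (adjusted p up to 0.0713), and the age-1 call without empty vector replicate 2 or 4 or RNAi replicate 3 (adjusted p up to 0.179). nlp-56 shares exon bases with Y57G11C.1130 on the other strand.

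nlp-39 was barely detected in wild type. On empty vector the 4 wild type libraries held 1 read in all, with deposited values of 0, 0.843, 0 and 0. Under RNAi the values were 5.66, 9.88, 9.15 and 10.9, from 39 reads, a ratio of 36.3 with an exact 95% interval of 6.15 to 1472 that covers counting error only. The mutants on empty vector held 112 reads in eat-2 (ratio to wild type 71.9, interval 12.6 to 2865), 69 in clk-1 (66.4, 11.5 to 2660), 24 in raga-1 (29.7, 4.85 to 1222) and 8 in age-1 (7.20, 0.966 to 320). The age-1 interval includes a ratio of 1. In clk-1 nlp-39 went from 16, 21.9, 13.7 and 14.1 on empty vector to 199, 151, 75.9 and 92.1 under RNAi, a log2 change of 2.82 ± 0.49 (limma adjusted p = 1.13e-05).

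nlp-59 rose most in raga-1, from 56, 48.2, 44 and 43.4 to 273, 151, 241 and 219, with no overlap (2.16 ± 0.23, limma adjusted p = 2.17e-10). It rose by 0.94 in wild type (limma adjusted p = 0.00208) and 0.80 in eat-2 (adjusted p = 0.00521), and by 0.05 in clk-1 (adjusted p = 0.867). nlp-12, a cholecystokinin-like peptide of the stretch-sensing neuron DVA, had means of 51.1 and 111 in raga-1 (1.11 ± 0.16, limma adjusted p = 2.33e-07) and of 63.6 and 107 in clk-1 (0.73, adjusted p = 0.000316). nlp-12 means were 43.4 and 43.0 in wild type. nlp-40, from the intestine, had means of 1890 and 2732 in raga-1 (0.53, limma adjusted p = 1.08e-05), of 1914 and 2656 in clk-1 (0.48, adjusted p = 0.000102), and of 1393 and 1243 in wild type, which was not called.

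nlp-3 fell under RNAi in eat-2 (-0.68, limma adjusted p = 0.00969), and in the age-1 mutant (-0.93 ± 0.21, adjusted p = 0.00166). Against wild type on empty vector, nlp-2 was higher in clk-1, with a range of 31.8 to 38 against 7.49 to 11.2 (1.95 ± 0.30, limma adjusted p = 1.07e-06). nlp-73 was higher in raga-1 (1.08, limma adjusted p = 6.41e-10), as was nlp-67 (1.26 ± 0.22, adjusted p = 1.92e-05). Of the 60 nlp genes, 34 were higher and 4 lower in eat-2, and 32 and 0 in raga-1. The counts were 38 and 4 for clk-1, and 3 and 1 for age-1. Backgrounds in either direction were 57% (eat-2), 46.1% (raga-1), 58.3% (clk-1) and 8.48% (age-1). The nlp share was near these for eat-2, raga-1 and age-1. By direction the calls for eat-2, raga-1 and clk-1 leaned higher, beside backgrounds of 27.2%, 19.7% and 27.8% called higher. The eat-2 median of 0.49 turned to -0.13 when scaled to neurons.

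**Figure D4:**
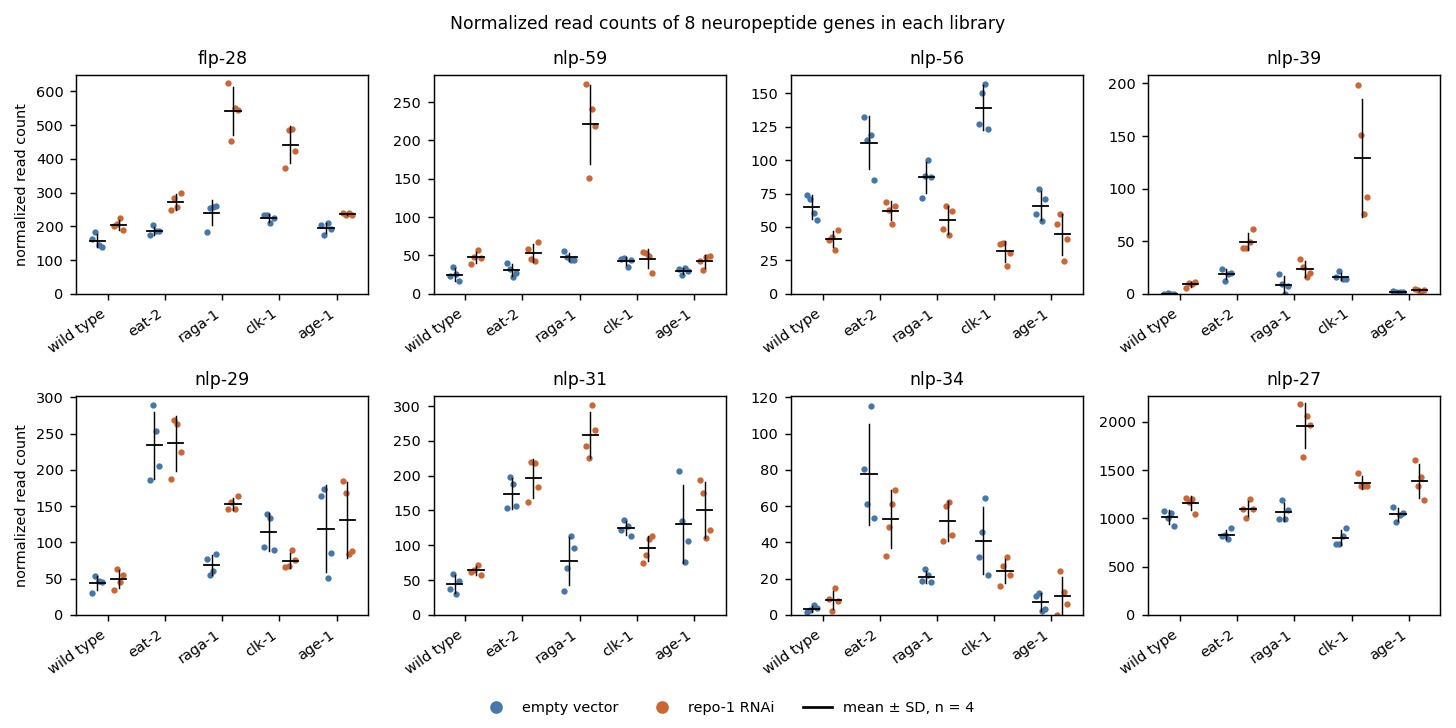
Deposited values of flp-28, nlp-59, nlp-56, nlp-39, nlp-29, nlp-31, nlp-34 and nlp-27 in each of the 40 libraries, by group, with group means. nlp-39 lies between 0 and 0.843 in wild type on empty vector and between 75.9 and 199 in clk-1 under RNAi.

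The antimicrobial-type nlp genes behaved less alike. Of 11 listed, 9 were tested, and 6 genes of the list (nlp-27 to nlp-31 and nlp-34 by number) lie within 10.946 kb on chromosome V:3978825-3989770. They are similar in sequence, so reads may be split between them uncertainly. nlp-29, the gene most often used as a reporter of epidermal defence, stood at 30.1, 54, 47.2 and 44.9 in wild type on empty vector and at 187, 290, 254 and 205 in eat-2. In clk-1 it stood at 94.3, 140, 134 and 89.7. All libraries of eat-2 and clk-1 lay above those of wild type, with log2 differences of 2.39 ± 0.27 (limma adjusted p = 3.86e-09) and 1.36 (adjusted p = 6.4e-05). In age-1 the 4 libraries stood at 164, 174, 50.6 and 85.9 and overlapped wild type (1.27, limma adjusted p = 0.00166, not called from these 2 groups alone). In raga-1 the difference of 0.65 had an adjusted p of 0.0509, or 0.0446 with the replicate block.

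nlp-34 showed the largest difference of this set. It stood at 1.72, 2.53, 5.49 and 3.74 in wild type, at 80.2, 61.0, 115 and 53.3 in eat-2, at 31.9, 45.8, 64.4 and 21.8 in clk-1 and at 18.7, 25.4, 22 and 18.2 in raga-1. Each of these 3 mutants lay wholly above wild type, by 4.18 ± 0.58, 3.23 and 2.4 (limma adjusted p = 1.9e-07, 1.27e-05 and 0.000963). nlp-31 differed by 2.00 ± 0.26 in eat-2 (limma adjusted p = 3.67e-08), 1.53 in clk-1 (adjusted p = 3.88e-06), 1.51 in age-1 (adjusted p = 7.79e-05) and 0.73 in raga-1 (adjusted p = 0.0189).

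Other members of the set went the other way. nlp-24 had a mean of 948 in wild type, 701 in eat-2 and 505 in clk-1, with log2 differences of -0.42 (limma adjusted p = 0.00389) and -0.89 ± 0.12 (adjusted p = 1.29e-07). nlp-27 was lower in eat-2 (-0.28, limma adjusted p = 0.00377) and clk-1 (-0.35, adjusted p = 0.000534). nlp-26 was lower in eat-2, clk-1 and age-1 (-0.46, -0.48 and -0.63). nlp-24 and nlp-26 share exon bases with glb-15 and Y43F8C.3, in that order, on the other strand. In eat-2 and in clk-1 alike, 5 of the 9 were called higher and 3 lower (background 57% and 58.3% in either direction). Of 14 hypodermis markers, 5 were called higher and 2 lower in eat-2, with a median of 0.88. That share was below the 57% of all tested genes called.

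Under RNAi the set split again. In raga-1, 7 of 9 rose and none fell (median 1.00), while in clk-1 4 rose and 1 fell (median -0.40). Backgrounds in either direction were 71.1% in raga-1 (38.2% higher) and 46.3% in clk-1 (23.8% higher). With so few genes, the shares called in either direction were near these. nlp-27 rose in raga-1 from 998, 1187, 998 and 1092 to 2184, 1634, 2060 and 1973 and in clk-1 from 739, 735, 822 and 903 to 1466, 1341, 1337 and 1336. Neither pair of groups overlapped (0.87 ± 0.08, limma adjusted p = 2.42e-11, and 0.78, adjusted p = 1.46e-09). nlp-28 fell in clk-1 from 343, 332, 375 and 401 to 192, 129, 228 and 255, also without overlap (-0.89 ± 0.16, limma adjusted p = 2.5e-05), and its change in raga-1 was -0.00 (adjusted p = 0.987). nlp-29 rose in raga-1 from 77.4, 54.9, 60.5 and 84.0 to 146, 155, 146 and 165 (1.15, limma adjusted p = 0.00037) and stood at 66.5 to 89.1 in clk-1 under RNAi, a change of -0.59 that was not called (adjusted p = 0.0784, and 0.043 by edgeR). nlp-30 rose in raga-1 by 2.24 ± 0.52 (limma adjusted p = 0.000298), or by 1.34 without raga-1 empty vector replicate 1, the library in which it was at 0.

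Of the 16 insulin-like genes, 10 rose and none fell under RNAi in raga-1 (median 0.98), and 8 rose and 1 fell in clk-1 (median 0.58). Backgrounds in either direction were 71.1% in raga-1 (38.2% higher) and 46.3% in clk-1 (23.8% higher). The raga-1 share in either direction was below its background. The summed insulin-like value went from 469 ± 20.6 (SD, n = 4) to 900 ± 88.2 in raga-1 and from 537 ± 46.9 to 849 ± 57.5 in clk-1. In wild type it was 374 ± 29.8 and 416 ± 17.6, in eat-2 565 ± 34.7 and 632 ± 83.0, and in age-1 450 ± 18.8 and 547 ± 30.5. Of 4 tested activators of DAF-2, 2 rose in raga-1 and 1 in clk-1 (medians 0.66 and 0.57), and of 4 tested antagonists 4 rose in raga-1 and 2 in clk-1 (medians 1.13 and 0.70).

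daf-28, an activator of DAF-2 made in sensory neurons, stood at 50.7, 52.2, 59.1 and 39.9 in raga-1 on empty vector and at 120, 97.0, 98.2 and 87.3 under RNAi. In clk-1 it stood at 60.1, 64.6, 65.3 and 88.4, then at 110, 101, 128 and 125. In wild type it stood at 58.5, 47.2, 50.5 and 39.9, then at 60.4, 44.5, 52.1 and 49.5. The groups did not overlap in raga-1 (0.99 ± 0.17, limma adjusted p = 3.68e-06) or clk-1 (0.74, adjusted p = 0.000438) and overlapped in wild type (0.08, adjusted p = 0.782). The change in raga-1 differed from that in wild type by 0.91 (limma adjusted p = 0.00161), a difference that was not called after quantile normalization or scaling to neurons. daf-28 was also called higher under RNAi in eat-2 (0.45, limma adjusted p = 0.033) and age-1 (0.55, adjusted p = 0.0178). The eat-2 call ended without empty vector replicate 1 or 2 or RNAi replicate 2 or 4 (adjusted p up to 0.149) and the age-1 call without empty vector replicate 1 or RNAi replicate 1 or 2 (adjusted p up to 0.0962). Fitted from the age-1 groups alone, the RNAi calls of daf-28, flp-28, nlp-47 and nlp-56 in age-1 ended.

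The other activators were lower in level and less uniform. ins-4 fell in wild type under RNAi, from 12.9, 16.9, 22 and 19.97 to 5.66, 8.89, 11.9 and 14.3, with 1 library overlapping (-0.80 ± 0.27, limma adjusted p = 0.0264). That call ended without empty vector replicate 3 or 4 or RNAi replicate 1 or 2 (adjusted p up to 0.146). In clk-1 ins-4 changed by 0.60 (limma adjusted p = 0.0631), and the clk-1 change differed from the wild type one by 1.40 ± 0.38 (adjusted p = 0.00561). ins-6 rose in raga-1, from a mean of 14.8 to 28.9 (0.90 ± 0.28, limma adjusted p = 0.00443). This call ended after quantile normalization, as did those of ins-1, ins-18 and pdf-2 in raga-1.

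ins-7, an activator known from the intestine and from neurons, was higher in eat-2 on empty vector. It stood at 33.5, 22, 22.9 and 17.4 there against 6.89, 5.90, 3.29 and 3.74 in wild type, with no overlap (2.07 ± 0.53, limma adjusted p = 0.00102). Under RNAi it stood at 17.1, 7.24, 2.26 and 9.42 in eat-2, below all eat-2 empty vector values (-1.53, limma adjusted p = 0.0208), a call that ended without empty vector replicate 1 or RNAi replicate 3 (adjusted p up to 0.127). That fall was not called different from the change in wild type (-1.87 ± 0.74, limma adjusted p = 0.109). In raga-1 ins-7 was higher than in wild type by 1.28 (limma adjusted p = 0.0447), a call that ended with the replicate block (0.0514) and without wild type replicate 2, 3 or 4 or raga-1 replicate 1 or 4 (adjusted p up to 0.127).

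Among the antagonists, ins-17 stood at 77.4, 68.3, 75.6 and 71.4 in raga-1 on empty vector and at 176, 167, 181 and 157 under RNAi. In clk-1 it stood at 97.3, 93.7, 96.2 and 102, then at 184, 209, 178 and 193. The groups lay far apart in each, with log2 changes of 1.21 ± 0.14 (limma adjusted p = 1.85e-09) and 0.96 (adjusted p = 5.45e-07), and each change exceeded that in wild type, by 0.87 (adjusted p = 0.000339) and 0.63 (adjusted p = 0.0167). In all, ins-17 was called higher under RNAi in 3 genotypes. ins-1 (0.98 ± 0.26, limma adjusted p = 0.001) and ins-18 (1.05 ± 0.25, adjusted p = 0.0003) rose in raga-1 and were called under RNAi in no other genotype. On empty vector, ins-17 was higher than in wild type in eat-2 (0.71, limma adjusted p = 4.12e-05) and clk-1 (0.73, adjusted p = 2.78e-05), and ins-1 in eat-2 (0.95, adjusted p = 0.00188).

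ins-37 was low and variable. It went from 8.0, 4.02, 5.50 and 13.3 to 63.0, 36.9, 28.5 and 44.1 in raga-1 (2.4 ± 0.64, limma adjusted p = 0.00129). In clk-1 it went from 0, 0, 3.44 and 1.28 to 8.06, 3.71, 55 and 34.4 (3.26, limma adjusted p = 7.87e-05, between 2.68 and 3.88 with any 1 library left out). RNAi libraries lay above the empty vector libraries in each mutant, but those of clk-1 spread widely among themselves.

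**Figure D5:**
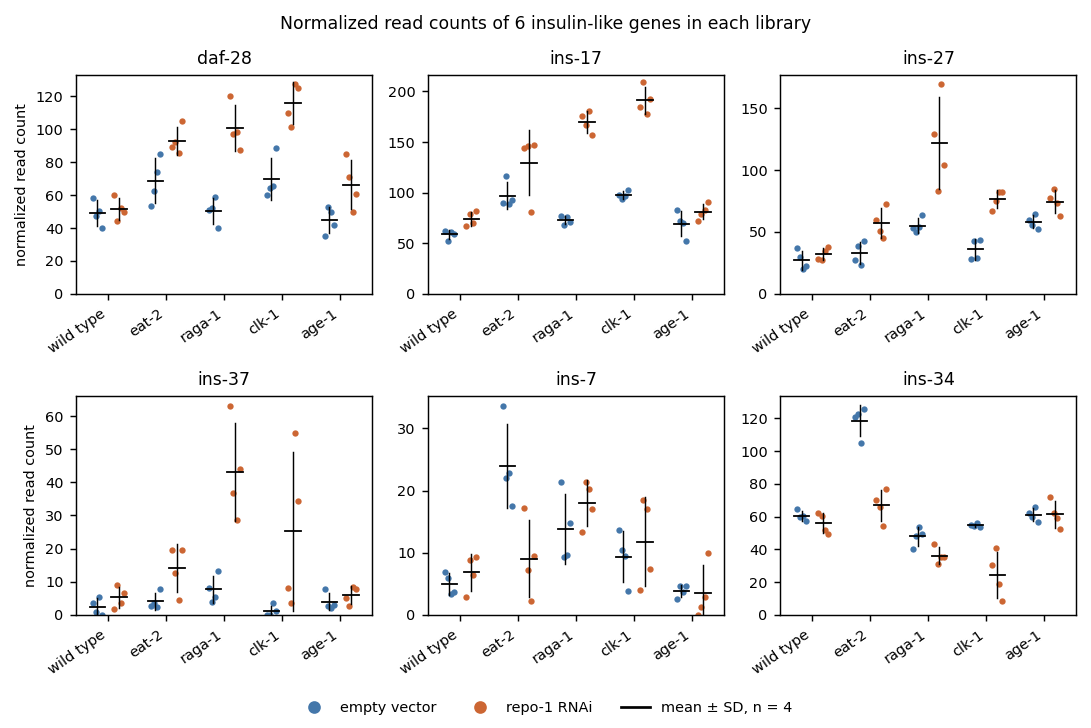
Deposited values of daf-28, ins-17, ins-27, ins-37, ins-7 and ins-34 in each of the 40 libraries, by group, with group means. ins-17 lies between 157 and 181 in raga-1 under RNAi and between 68.3 and 77.4 on empty vector, while ins-34 falls in clk-1 from 53.8 to 55.9 on empty vector to 8.6 to 40.8 under RNAi.

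ins-34, whose exon bases partly overlap nkcc-1 on the other strand, went against the family. It stood at 54.8, 54.2, 55.9 and 53.8 in clk-1 on empty vector and at 30.2, 40.8, 18.6 and 8.6 under RNAi. In eat-2 it stood at 121, 123, 105 and 126, then at 70.2, 66.0, 54.2 and 76.9. The groups did not overlap, with changes of -1.32 in clk-1 (limma adjusted p = 1.09e-05) and -0.83 in eat-2 (adjusted p = 0.00418). On empty vector eat-2 lay above all wild type libraries (57.4 to 64.6), by 0.96 ± 0.23 (limma adjusted p = 0.000496).

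ins-27, 1 of 5 ins genes within 25.409 kb on chromosome I, rose under RNAi in eat-2 (0.80 ± 0.21, limma adjusted p = 0.00252), raga-1 (1.09, adjusted p = 2.11e-05) and clk-1 (1.09, adjusted p = 4.47e-05). On empty vector it stood at 37, 29.5, 19.8 and 22.5 in wild type and at 59.8, 55.3, 64.5 and 52.6 in age-1. All age-1 libraries lay above wild type (1.10, limma adjusted p = 0.000318). ins-27 was also higher in raga-1 (1.03, limma adjusted p = 0.000112). Its neighbour ins-30 rose under RNAi in raga-1 (1.37 ± 0.25, limma adjusted p = 1.08e-05) and clk-1 (0.74, adjusted p = 0.0152). ins-5 differed most in clk-1 on empty vector, at 28.9, 37.5, 38.7 and 38.4 against 4.30, 11.8, 6.59 and 2.5 in wild type (2.49 ± 0.46, limma adjusted p = 1.83e-05). ins-5 lies with ins-4 and ins-6 within 4.644 kb on chromosome II, yet neither of those was called in that comparison.

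Across the mutants on empty vector, 9 insulin-like genes were higher and 1 lower in eat-2 (median 0.53), 5 and 0 in raga-1 (0.27), 8 and 1 in clk-1 (0.55) and 2 and 0 in age-1 (0.18). Among all tested genes, the shares called in either direction were 57% (eat-2), 46.1% (raga-1), 58.3% (clk-1) and 8.48% (age-1). The insulin-like share was near this background for eat-2 and clk-1, and below it for raga-1. The 2 genes called for age-1 are too few to compare. By direction the calls leaned higher, beside backgrounds of 27.2%, 19.7%, 27.8% and 4.76% called higher, in the same order. Scaled to neurons, the eat-2 and raga-1 medians turned to -0.09 and -0.13. The eat-2 median was also -0.05 after quantile normalization, while those of clk-1 and age-1 stayed above 0 under each scaling.

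Both pdf genes rose under RNAi in raga-1. pdf-1 stood at 64, 143, 160 and 139 on empty vector and at 250, 272, 189 and 208 under RNAi. The groups did not overlap (0.92 ± 0.18, limma adjusted p = 2.83e-05), and the change exceeded that in wild type by 1.20 (adjusted p = 0.000172). pdf-2 rose in raga-1 from a mean of 32.5 to 58.6 (0.81 ± 0.24, limma adjusted p = 0.00291). On empty vector pdf-2 stood at 60.1, 67.7, 68.7 and 64.1 in clk-1 against 32.7, 27.8, 26.4 and 22.5 in wild type, with no overlap (1.23, limma adjusted p = 3.37e-05). pdfr-1, which encodes the receptor for these peptides, had a mean of 762 in clk-1 and 105 in wild type (2.85 ± 0.14, limma adjusted p = 6.91e-19), and 450 in clk-1 under RNAi (-0.77, adjusted p = 1.97e-05).

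egl-3, the convertase that cuts most neuropeptide precursors, had means of 2079 and 3605 in raga-1 (0.80 ± 0.07, limma adjusted p = 6.18e-13) and of 1886 and 2662 in clk-1 (0.49, adjusted p = 1.16e-07), and 1340 and 1317 in wild type. The carboxypeptidase gene egl-21 rose by 0.64 in raga-1 (limma adjusted p = 2.99e-12) and 0.38 in clk-1 (adjusted p = 7.57e-07), and sbt-1, the chaperone of EGL-3, by 0.74 (adjusted p = 2.07e-12) and 0.48 (adjusted p = 1.3e-07). pamn-1, which amidates peptide ends, fell in clk-1 (-0.44, limma adjusted p = 0.00308) and eat-2 (-0.46, adjusted p = 0.00289), and its change in raga-1 was 0.07 (adjusted p = 0.603). Of 32 listed genes of processing and release, 20 rose and 7 fell in raga-1 (median 0.39), 11 and 9 in clk-1 (0.07), 1 and 10 in eat-2 (-0.12), and 4 and 4 in wild type (-0.01). The backgrounds in either direction were 71.1% in raga-1, 46.3% in clk-1, 37.5% in eat-2 and 23% in wild type, so the eat-2 and wild type counts were near them. By direction the eat-2 calls leaned lower, beside backgrounds of 16.2% higher and 21.4% lower.

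Of 107 listed receptor genes, 41 passed the mean of 10. Under RNAi 15 of them rose and 1 fell in raga-1 (median 0.59), 6 and 4 in clk-1 (0.09), 2 and 4 in eat-2 (-0.18), 2 and 3 in age-1 (-0.21) and 1 and 3 in wild type (-0.05). In each genotype the share of receptor genes called was below that of all tested genes (71.1% in raga-1 and 46.3% in clk-1). sprr-2, related to the insect sex peptide receptor, was called lower in all 5 genotypes, by -0.71 to -1.06. daf-2 rose in eat-2 (0.28 ± 0.04, limma adjusted p = 7.43e-06), which was not called when scaled to neurons. It was also called higher in wild type (0.14) and age-1 (0.14), changes that turned to -0.09 and -0.21 with that scaling.

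The RNAi effect on peptide genes differed from that in wild type mostly in raga-1. There 63 genes had a larger and 1 a smaller log2 change (background 28.4% and 27.2%, 55.6% in either direction), with a median difference of 0.66 that lay 0.54 above the median of all tested genes (0.12). The share called in either direction was near the background in raga-1 and in clk-1. In clk-1 20 were larger and 5 smaller (background 13.7% and 9.9%, 23.6% in either direction), with a median of 0.34. In eat-2 1 was larger (background 3.98% higher and 6.73% lower, 10.7% in either direction), which was nlp-77, with 16 at an unadjusted p under 0.05 and 2 called with the replicate block, which added nlp-40. The nlp-77 call was not kept by edgeR, which called 4 other genes (1 higher and 3 lower), or with scaling to neurons, which left 0. In age-1 limma called none (background 0.00811%), with 5 at an unadjusted p under 0.05 and 0 called by edgeR. All 4 comparisons share the wild type libraries. repo-1 itself fell less than in wild type in eat-2 (interaction 0.47, limma adjusted p = 0.00981) and raga-1 (0.33, adjusted p = 0.0246). On empty vector it was already lower in eat-2, raga-1 and clk-1, at 80.9, 77.4 and 78.8% of the wild type mean. The part of these differences in the peptide genes' changes was not tested.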

How the data were processed

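The authors' deposited table holds a normalized signal, gene counts divided by a size factor per library. Per the submitters' processing notes the build was WBcel235 and the tools were Salmon 0.14.2, DESeq2, STAR, FastQC 0.11.8 and MultiQC, with no roles given. Libraries were made with a stranded kit, per the labels, and the counting strand is not given in the sources used here. Dividing by each column's smallest value gave whole reads (100% within 0.01), although 2 columns step near 1 and say little.

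Genes with a mean of at least 10 (12327) were fitted as log2(value + 1) in limma 3.58.1 (R 4.3.3) with an intensity trend and a mean per group, giving 13 contrasts with p-values adjusted within each. Recovered reads were tested with edgeR 4.0.16 as an alternative. Other alternatives were a pseudocount of 4, no filter, quantile normalization, scaling to 25 neuron markers, a replicate block, the groups of a contrast alone, and each library left out. Scripts were tested on simulated data. The labels give the replicate number as the batch, which pairs the samples. Residuals of the 36 same-numbered pairs correlated at -0.175 to 0.261 (median 0.0530), 11 of them over 0.1.

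Named genes were a fixed set of 19, the largest called changes per contrast, genes called in 4 or 5 genotypes, and the highest in each family. Gene lists and members were chosen with earlier results of these data known. Positions come from the Ensembl annotation of WBcel235, where 103 of the peptide genes carry the same symbol and 5 another. The 5 are nlp-77 (now srlf-1), nlp-73 (cthd-1), nlp-38 (mihp-1), nlp-42 (mihp-2) and nlp-10 (npl-10). No sequences are printed.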

Additional observations from a re-analysis of the deposited data

Results flagged for a closer look

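In 19 of 360 groups of 4 libraries examined, 1 library stood apart from the others, beside about 1 in 20 by chance. Among flp genes these were flp-28 in raga-1 on empty vector (184.1, low), flp-1 in eat-2 under RNAi (209.9, low), flp-11 in wild type on empty vector (95.5, low), and flp-14 in wild type under RNAi (187, high), age-1 on empty vector (114, low) and age-1 under RNAi (184, high). Among nlp genes they were nlp-77 in eat-2 on empty vector (6725, high), nlp-47 in age-1 under RNAi (152.0, high), nlp-39 in wild type on empty vector (0.843, the single read), nlp-27 in clk-1 under RNAi (1466, high), and nlp-28 in eat-2 on empty vector (391) and raga-1 under RNAi (195). Among ins and pdf genes they were ins-17 in eat-2 on empty vector (116) and under RNAi (81.2), ins-37 in age-1 on empty vector (7.80), ins-5 in clk-1 on empty vector (28.9) and pdf-1 in clk-1 under RNAi (170.3). The summed ins (763) and pdf (231) values of clk-1 under RNAi also held a library apart.

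The RNAi effect differed from that in wild type for 25 peptide genes in clk-1, 64 in raga-1 and 1 in eat-2, by limma's interaction test, beside 23.6%, 55.6% and 10.7% of all tested genes, shares that the peptide genes were near in clk-1 and raga-1 and below in eat-2. In eat-2 the gene was nlp-77 (0.32, adjusted p = 0.021), a call that ended without wild type empty vector replicate 3 or RNAi replicate 4, by edgeR and with scaling to neurons. The largest differences in raga-1 were nlp-82 (1.82), nlp-57 (1.48), flp-33 (1.46) and nlp-70 (-1.13). Of these, nlp-82 (limma adjusted p = 0.0474) and nlp-70 (adjusted p = 0.0479) were not called by edgeR and lost the call without any 1 of 11 and 9 libraries, nlp-82 moving to 0.85 at the lowest. The largest in clk-1 were ins-33 (1.49), ins-4 (1.40), flp-20 (1.05), nlp-56 (-1.47), ins-34 (-1.21) and nlp-31 (-0.97). The nlp-31 call (limma adjusted p = 0.047) ended with the replicate block and without any 1 of 11 libraries, those of flp-20 without wild type empty vector replicate 4 or clk-1 empty vector replicate 2, and those of ins-33 without any 1 of 4 libraries.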

How the results depend on the processing

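Of 436 results for single genes, 432 kept direction and side of the threshold with a pseudocount of 4, 430 with the replicate block, 419 with no filter, 416 with edgeR, 398 with the groups of a contrast alone, 388 with quantile normalization and 317 with scaling to neurons. The block moved the count of peptide genes whose RNAi effect differed between eat-2 and wild type from 1 to 2 and changed 6 single-gene calls. They were flp-28 under RNAi in age-1 (adjusted p = 0.0521), ins-7 in raga-1 (0.0514), nlp-31 in the clk-1 interaction (0.0517), and, gained, nlp-40 in the eat-2 interaction (0.0445), nlp-29 in raga-1 (0.0446) and daf-2 in age-1 (0.0320), all by limma.

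Most other changes came with another scale, and scaling to neurons shifted all genes of a comparison by between 0.62 down (eat-2 against wild type) and 0.20 up (the clk-1 interaction). With it the counts called under RNAi were 47 in raga-1, 19 in age-1, 10 in eat-2 and 9 in wild type, those against wild type 35 in clk-1, 29 in raga-1 and 25 in eat-2, and those of the interactions 0 in eat-2 and 27 in raga-1. With quantile normalization they were 44 in eat-2 and 56 in raga-1 under RNAi, 32 in eat-2 and 45 in clk-1 against wild type, and 8 in eat-2 and 35 in raga-1 for the interactions. With the groups of the contrast alone they were 4 for RNAi in age-1, 6 for age-1 against wild type and 7 for the eat-2 interaction, for which edgeR gave 4, with 1 higher and 3 lower and 0 shared with limma's call.

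Positive changes, called unless marked, turned negative when scaled to neurons. Under RNAi in age-1 they were nlp-13 (-0.014), flp-28 (-0.076), nlp-77 (-0.043), egl-3 (-0.18), egl-21 (-0.32, not called), sbt-1 (-0.17) and daf-2 (-0.21). Under RNAi in wild type they were nlp-77 (-0.033) and daf-2 (-0.087), and in raga-1 flp-6 (-0.11), pamn-1 (-0.41) and daf-2 (-0.41), of which the last 2 were not called. Against wild type in eat-2 they were flp-28 (-0.37), flp-1 (-0.070), nlp-40 (-0.26), daf-28 (-0.15), ins-18 (-0.0075), flp-11 (-0.23), flp-14 (-0.15), egl-3 (-0.10), egl-21 (-0.23), sbt-1 (-0.071), pamn-1 (-0.51) and daf-2 (-0.59), of which the last 2 were not called. In raga-1 they were nlp-77 (-0.24), nlp-27 (-0.33, not called) and daf-2 (-0.21), and in clk-1 flp-14 (-0.056), egl-21 (-0.054) and daf-2 (-0.15). With quantile normalization flp-28 (-0.063), daf-28 (-0.052) and ins-18 (-0.0054) reversed in eat-2.

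With 1 library left out, counts under RNAi ranged from 4 to 11 in wild type, 22 to 30 in eat-2, 85 to 89 in raga-1, 47 to 55 in clk-1 and 7 to 14 in age-1. Against wild type they ranged from 56 to 65 in eat-2, 51 to 57 in raga-1, 69 to 76 in clk-1 and 7 to 10 in age-1, and for the interactions from 0 to 2 in eat-2, 54 to 63 in raga-1 and 20 to 28 in clk-1. The cause of these changes was not tested. Among genes of different mean, 18 of 31 genes with a mean under 30 were called higher under RNAi in raga-1 against 37 of 38 with a mean of at least 100, and their median SE was 0.31 and 0.12.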
